A study of Mus musculus with 4 samples.

Results

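The 9 genes described here encode proteins that help set how blood clots, and how a clot is dissolved, at the surface of an endothelial cell. They were taken by mouse symbol from the table of gene counts, and all 9 had a row among its 27179. The anticoagulant members are Thbd, Procr and Tfpi, the procoagulant members are F3, F8, F5 and Vwf, and the plasminogen activators are Plat and Plau. RNA was sequenced from the mAEC line, endothelial cells of the mouse aorta grown in culture, in 2 groups. The conditioned medium group (2 libraries) received supernatant from TNFα+CD68+ macrophages, that is, macrophages bearing an inflammatory cytokine and a marker of their lineage. The control group (2 libraries) was kept in normal medium. The libraries are biological replicates according to the series, but the sources used here do not say whether they came from separate cultures, nor do they give the dose, the exposure time or the batches. The p-values therefore measure the spread between these libraries, which may be technical. With 2 libraries per group, the test estimates each gene's spread largely from the other genes. A single cell line in culture limits what the cells stand for. Only RNA was counted, and the data used here hold no measure of protein, surface level or clotting activity.

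As background, clotting starts when tissue factor binds a plasma factor, and it is amplified by the cofactors FVIII and FV until thrombin forms fibrin. Resting endothelium holds this back. Thrombomodulin and the endothelial protein C receptor turn thrombin into an activator of protein C, which destroys the cofactors, and tissue factor pathway inhibitor blocks the starting complex. The fibrin that does form is removed by plasmin, which tissue-type and urokinase-type plasminogen activators release from plasminogen. Inflamed endothelium is known to shift towards clotting in several settings, with less thrombomodulin and more tissue factor.

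Library totals ran from 13815695 to 18005840 counts, and 3 counts corresponded to 0.167 to 0.217 CPM (counts scaled to library size by TMM). The cells carried the endothelial label in most of its markers: 9 of 10 were tested. Of these 2 rose (Eng and Egfl7), 1 fell (Kdr) and 6 were not called. The share called was 33.3%, beside 16.8% of all genes tested. Egfl7 and Kdr lost their calls when either conditioned medium library was left out (highest edgeR adjusted p = 0.131 and 0.239). The list's summed level was 6577 and 6513 CPM in conditioned medium, against 6374 and 6373 CPM in control. The tight junction gene Cldn5 was the exception, with 1 count in all. Of the macrophage list, 7 of 10 genes had no more than 3 counts in any library, and Adgre1, Tyrobp and Mrc1 were at 0 throughout. That list summed to 245.6 and 253.8 CPM in conditioned medium and 224.5 and 253.1 CPM in control, nearly all of it Cd68, the marker named for the donor macrophages, which these cells expressed in both groups. Platelets also carry several of the genes described here. Their list summed to 11.3 and 12.6 CPM in conditioned medium and 9.41 and 9.58 CPM in control, with Ppbp and Gp6 at 0. Smooth muscle and fibroblast markers summed to 41.3 and 42.7 CPM in conditioned medium, against 34.3 and 36.7 CPM in control. Of 3 tested, Pdgfra was called higher (31.8 ± 0.36 CPM in conditioned medium, against 26.2 ± 1.20 CPM in control; log2 fold change 0.28, edgeR adjusted p = 0.0171) and makes up most of that difference, while Lum was at 0. Its part in the results was not tested.

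In conditioned medium, Thbd, Procr and Plat rose and F8 fell. Each change was under 1.5-fold. Tfpi, F3, Vwf and Plau did not pass the test, and F5 had too few counts to be tested. Over all genes, 16.8% were called by edgeR's quasi-likelihood test at a Benjamini-Hochberg adjusted p under 0.05, with 8.53% higher and 8.23% lower, and of the 8 members tested 4 were. Deeply counted genes were called more often: at a mean count of 1000 or more, 30.6% of all genes and 4 of 6 members passed. The median log2 fold change was 0.12 over the 8 tested members and 0.00 over all genes tested. The groups did not overlap in CPM for 6 of the 8, as for 57.2% of all genes tested. With either conditioned medium library left out, fewer members were called, as were fewer genes over the whole table. The lone library is then assumed to vary like the control pair. Thbd, Procr, Plat and F8 kept their direction in both fits. Without conditioned medium replicate 1 their log2 fold changes were 0.389, 0.3, 0.16 and -0.472.

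**Figure D1:**
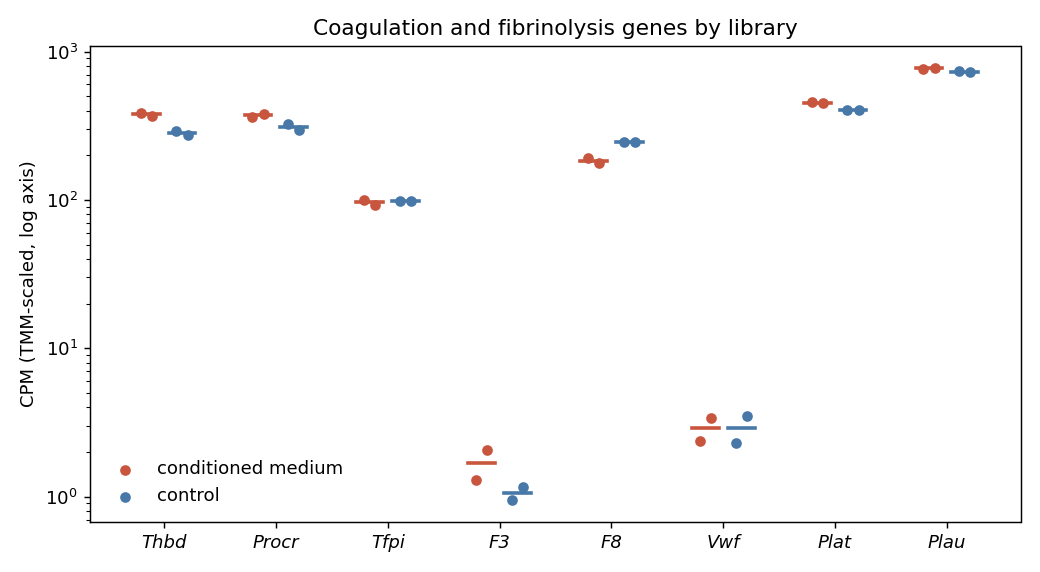
Level of each tested gene in each library, as TMM-scaled CPM on a log axis. Each point is a library and each bar the mean of a group, with conditioned medium in red and control in blue. The groups separate upward for Thbd, Procr and Plat and downward for F8, while F3 and Vwf lie below 4 CPM. The F3 groups stand apart with a wide gap inside the conditioned medium pair, and the Vwf groups overlap.

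Thbd, the thrombomodulin gene, rose most firmly in RNA among the anticoagulant genes. Thbd is an intronless gene on chromosome 2, 148404471 to 148408188, minus strand, in GRCm38 (mm10), and its receptor catches thrombin and redirects it to protein C. It had 384.6 and 369.2 CPM in conditioned medium, against 291.0 and 272.9 CPM in control. Both treated libraries lay above both controls by more than the gap within either pair. The log2 fold change was 0.42 ± 0.05 (SE, n = 2 per group), or 1.34-fold higher (edgeR adjusted p = 2.15e-06), and it stayed called in all 13 alternatives. Among genes averaging 1000 counts or more, 2.41% had a larger absolute log2 fold change. In bulk RNA a change in the number of cells expressing a gene and a change in RNA per cell cannot be told apart.

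Procr encodes the endothelial protein C receptor, which presents protein C to the thrombin-thrombomodulin complex. It lies on chromosome 2, 155751125 to 155755478, plus strand. Procr had 363.3 and 381.5 CPM in conditioned medium, against 324.7 and 295.3 CPM in control. The groups did not overlap, and the gap within the control pair was the wider one. Procr was at a log2 fold change of 0.26 ± 0.05, or 1.20-fold higher (edgeR adjusted p = 6.01e-04). Without conditioned medium replicate 2 it was 0.23 and not called (edgeR adjusted p = 0.115, the highest of 13 alternatives that ran from 7.78e-16). Thbd and Procr, the cell-surface parts of the protein C system, were each called higher.

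Tfpi encodes the inhibitor of the tissue factor complex and lies on chromosome 2, 84432855 to 84476775, minus strand. It had 99.1 and 93.1 CPM in conditioned medium, against 98.8 and 99.0 CPM in control. The ranges overlapped, and the log2 fold change was -0.04 with a 95% interval of -0.15 to 0.06 (edgeR adjusted p = 0.627). The interval lies wholly below the Thbd estimate of 0.42. Tfpi2, a related Kunitz-type inhibitor that acts on plasmin and other proteases, fell to 22.8 ± 0.25 CPM in conditioned medium, against 31.2 ± 2.06 CPM in control. Its log2 fold change was -0.45 ± 0.08 (edgeR adjusted p = 6.67e-04), and without conditioned medium replicate 2 it was -0.44 and fell just short of a call (edgeR adjusted p = 0.0513, with alternatives from 1.63e-06).

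F3 encodes tissue factor, the membrane protein that starts clotting, on chromosome 3, 121723537 to 121735052, plus strand. Transcript was scarce in these cells: 18 and 37 counts in conditioned medium and 14 and 17 counts in control. In CPM these were 1.30 and 2.05 in conditioned medium, against 0.95 and 1.16 in control. The treated libraries lay higher but differed widely from each other. F3 was at a log2 fold change of 0.70 ± 0.35, with a 95% interval of -0.04 to 1.43, and was not called (edgeR adjusted p = 0.195). Single libraries moved it, to 0.30 when conditioned medium replicate 2 was omitted and to 0.95 when replicate 1 of that group was. At this depth the interval covers both no change and a rise larger than that of any other member.

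The promoters of Procr and F3 are shown because the first gene rose and the second encodes the starter of clotting, and because both, as seen on searching, hold a match to the AP-1 motif TGANTCA, in capitals. The sequences come from RefSeq's GRCm38.p6 promoter table, in which 5 of the 9 members had an entry, and run 5′ to 3′ on the gene's strand. They end before the first annotated exon base. The Procr stretch is chr2:155750967-155751116 and the F3 stretch is chr3:121723287-121723536, both on the plus strand.
Procr: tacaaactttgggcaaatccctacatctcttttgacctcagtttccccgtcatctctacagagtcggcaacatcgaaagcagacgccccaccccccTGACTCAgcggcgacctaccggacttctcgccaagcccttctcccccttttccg
F3: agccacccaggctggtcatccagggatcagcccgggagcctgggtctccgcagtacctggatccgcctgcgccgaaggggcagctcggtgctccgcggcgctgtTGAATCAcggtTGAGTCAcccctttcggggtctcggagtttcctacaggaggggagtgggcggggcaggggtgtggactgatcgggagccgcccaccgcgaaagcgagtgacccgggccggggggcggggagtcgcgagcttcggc
Procr held 1 such match and F3 held 2, a few bases apart. On either strand the motif occurred in 6.9% of the 27025 mouse promoter windows of 250 bases that were searched. The windows of Tfpi, F8 and F5, the other members with an entry, held no AP-1 match. The whole F8 window, and a further Tfpi window, lay past the gene's first annotated exon base. Sequence upstream of all annotated F8 exons was thus not searched. Motifs of SP1, HIF and NF-kB were searched too, so the 6.9% does not allow for the choice among motifs and genes. Among these members the NF-kB consensus matched only in the F8 window, with 1 match, and it occurred in 7.0% of all windows. The SP1 box had 3 matches in the F3 window, matched also in those of Tfpi and F5, and occurred in 32.9% of windows. The HIF core matched in none of these members. The KLF core CACCC, searched on both strands, had 1 match in the Procr window and 3 in the F3 window, of which 1 overlaps the second AP-1 match, and it occurred in 51.3% of windows. A match describes letters and shows no binding.

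F8, the gene of the cofactor FVIII, was the member that fell. It spans chromosome X, 75170344 to 75382738, on the minus strand, with 26 exons in its principal transcript. F8 had 191.2 and 177.1 CPM in conditioned medium, against 244.9 and 246.6 CPM in control. Both treated libraries lay far below the closely matched controls. F8 was at a log2 fold change of -0.42 ± 0.05, or 1.34-fold lower (edgeR adjusted p = 3.13e-06), and it stayed called in all 13 alternatives. Among genes averaging 1000 counts or more, 2.44% had a larger absolute log2 fold change. Genes annotated inside the F8 locus share no exon bases with it.

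Vwf, which encodes von Willebrand factor, the carrier of FVIII and the tether of platelets, is usually a defining endothelial gene. In these cells it was scarce: 33 and 61 counts in conditioned medium and 34 and 51 counts in control, or 2.38 and 3.38 CPM in conditioned medium, against 2.30 and 3.49 CPM in control. The groups overlapped entirely, and replicate 2 was the higher library in each. The log2 fold change was 0.02 with a 95% interval of -0.53 to 0.57 (edgeR adjusted p = 0.974). Its sign changed when a library was left out: it was -0.25 when control replicate 1 was omitted, and -0.28 when conditioned medium replicate 2 was. The gene lies on chromosome 6, 125552948 to 125686679, plus strand.

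F5, the gene of the second cofactor, on chromosome 1, 164151835 to 164220277, plus strand, had 1 and 3 counts in conditioned medium and 0 and 2 counts in control. No library exceeded 3 counts, so no fold change is given. It shares 262 exon bases with an antisense noncoding gene, and the library kit does not mark strand. The liver-made factors were as scarce. Of 13 clotting factor, contact and fibrinogen genes 10 had no count in any library, F2, F7, F10 and Fga among them, and none passed the count filter.

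Of the plasminogen activators, Plat rose and Plau did not pass the test. Plat encodes tissue-type plasminogen activator, which works on fibrin, and lies on chromosome 8, 22757722 to 22782848, plus strand. It had 455.8 and 449.5 CPM in conditioned medium, against 401.0 and 403.8 CPM in control. The pairs were tight and did not overlap. Plat was at a log2 fold change of 0.17 ± 0.04, or 1.12-fold higher (edgeR adjusted p = 0.00704), and it lost its call without conditioned medium replicate 1 or 2 (edgeR adjusted p = 0.198 and 0.169, with alternatives from 3.51e-05) at a similar size of 0.16 and 0.18.

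Plau encodes urokinase, the activator that acts at the cell surface, and lies on chromosome 14, 20836662 to 20843388, plus strand. It had 766.9 and 780.1 CPM in conditioned medium, against 739.3 and 726.5 CPM in control. The groups did not overlap, by a margin wider than the gap within either pair. Plau was at a log2 fold change of 0.08 with a 95% interval of -0.01 to 0.16 (edgeR adjusted p = 0.218). It was called only without control replicate 1, at 0.09 (edgeR adjusted p = 0.0344, with alternatives up to 0.676).

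Among the genes around the activators, Thbs1 fell and Eno1 and Plaur rose. Thbs1, which encodes thrombospondin-1, a matricellular protein that binds many proteases and restrains vessel growth, had 634.6 and 610.6 CPM in conditioned medium, against 972.6 and 997.3 CPM in control, and fell 1.58-fold (edgeR adjusted p = 2.06e-09). Plaur, the urokinase receptor gene, rose by 0.16 ± 0.05 on the log2 scale (edgeR adjusted p = 0.0269). Eno1, a glycolytic enzyme that also binds plasminogen on cells, rose by 0.30 ± 0.04. Of 11 listed plasminogen receptor and fibrinolysis inhibitor genes 7 were tested, 2 rose and 1 fell. These calls are 42.9% of those tested, beside 16.8% over all genes and 30.6% over genes averaging 1000 counts or more. The plasminogen-binding pair Anxa2 and S100a10 was not called, at log2 fold changes of 0.08 and 0.01, nor were Plgrkt and Serpini1, at -0.15 and 0.60. Omitting a conditioned medium library moved Plgrkt to -0.0173 (replicate 1) or -0.33 (replicate 2), and Serpini1 to 0.395 (replicate 2). Plaur was not called by DESeq2 (adjusted p = 0.253) or when conditioned medium replicate 1 or 2 was left out (edgeR adjusted p = 0.162 and 0.306, with alternatives from 0.00574). Serpine2, an inhibitor of both activators, had no more than 2 counts in any library.

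**Figure D2:**
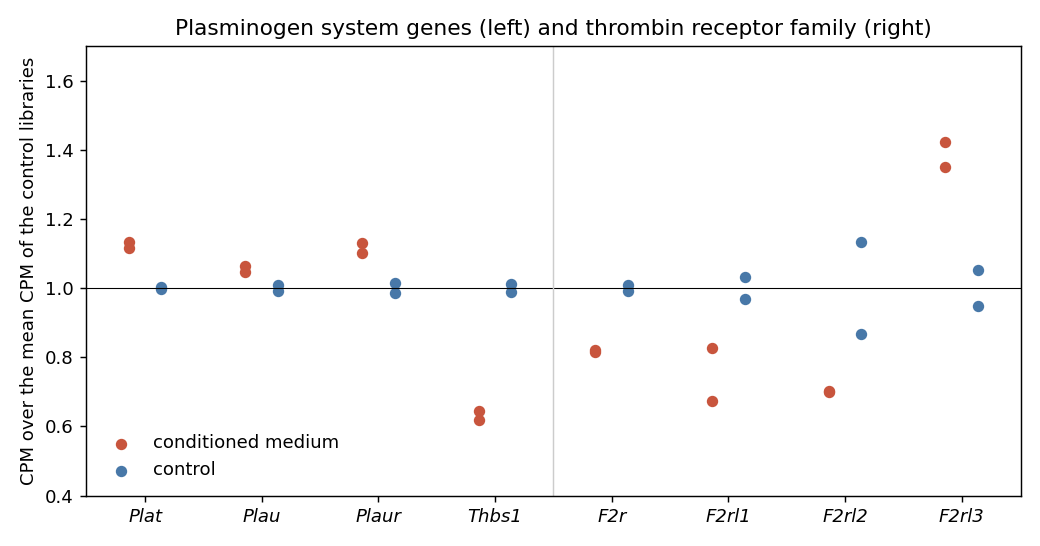
CPM of each library divided by the mean CPM of the control libraries, with conditioned medium in red and control in blue. The treated libraries lie above 1 for Plat, at 1.12-fold, and far below 1 for Thbs1. In the protease-activated receptor family the treated libraries lie above 1 for F2rl3 and below 1 for F2r, F2rl1 and F2rl2.

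Levels between genes were compared as RPKM, the CPM per kilobase of merged exons in the GENCODE M21 annotation, which may differ from the annotation used for counting. The order was Plau, Procr, Thbd, Plat, F8, Tfpi, F3, Vwf and F5 in both groups. In RPKM, Plau stood at 326.8 ± 3.94 in conditioned medium and 309.6 ± 3.80 in control (SD, n = 2 each). Procr followed at 183 ± 6.36 RPKM in conditioned medium, against 153 ± 10.2 in control. Thbd stood at 101 ± 2.93 RPKM in conditioned medium, against 75.7 ± 3.44 in control. Plat stood at 72.5 ± 0.71 RPKM in conditioned medium, against 64.5 ± 0.32 in control. F8 and Tfpi, at 18.6 ± 1.0 and 17.6 ± 0.79 RPKM in conditioned medium, overlapped between libraries, whereas at 24.8 ± 0.12 and 18.1 ± 0.03 RPKM in control they did not. F3 was at 0.66 ± 0.21 RPKM in conditioned medium, against 0.42 ± 0.06 in control, and Vwf at 0.18 ± 0.04 RPKM in conditioned medium, against 0.18 ± 0.05 in control. F5 was lowest, at no more than 0.022 RPKM in any library. Within each single library F8 still lay above Tfpi. The ranges of all other neighbours in the order did not overlap in either group.

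Ratios between genes inside a library do not depend on how libraries are scaled. Pairing F3 with Tfpi, Thbd or Procr, F5 with Tfpi, and Thbd with F8 sets procoagulant and anticoagulant genes against each other. The other pairs join genes of like role: Thbd with Procr, Plat with Plau, and F8 with Vwf. With 2 libraries against 2, an exact permutation test, two-sided, cannot go below p = 0.333. The Thbd to Procr ratio was 1.06 and 0.97 in conditioned medium, against 0.90 and 0.92 in control, and the Plat to Plau ratio was 0.59 and 0.58 in conditioned medium, against 0.54 and 0.56 in control. Both were higher without overlap (exact permutation p = 0.333 each), by 1.11-fold and 1.07-fold. The ratio of F3 to Tfpi was 0.013 and 0.022 in conditioned medium, against 0.0096 and 0.012 in control, also without overlap (exact permutation p = 0.333). It rests on the low F3 counts: the log2 difference of 0.68 became 0.30 with conditioned medium replicate 2 omitted and 1.05 with replicate 1 of that group omitted. F3 to Thbd and F3 to Procr overlapped between groups (exact permutation p = 0.667 each), as did F8 to Vwf (exact permutation p = 0.667), where F8 held 80.3 and 52.4 counts per Vwf count in conditioned medium, against 106.4 and 70.7 in control. The F5 to Tfpi ratio could not be formed, since F5 had 0 counts in a control library. A further ratio, chosen after its values were seen, was that of Thbd to F8, at 2.01 and 2.08 in conditioned medium, against 1.19 and 1.11 in control.

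**Figure D3:**
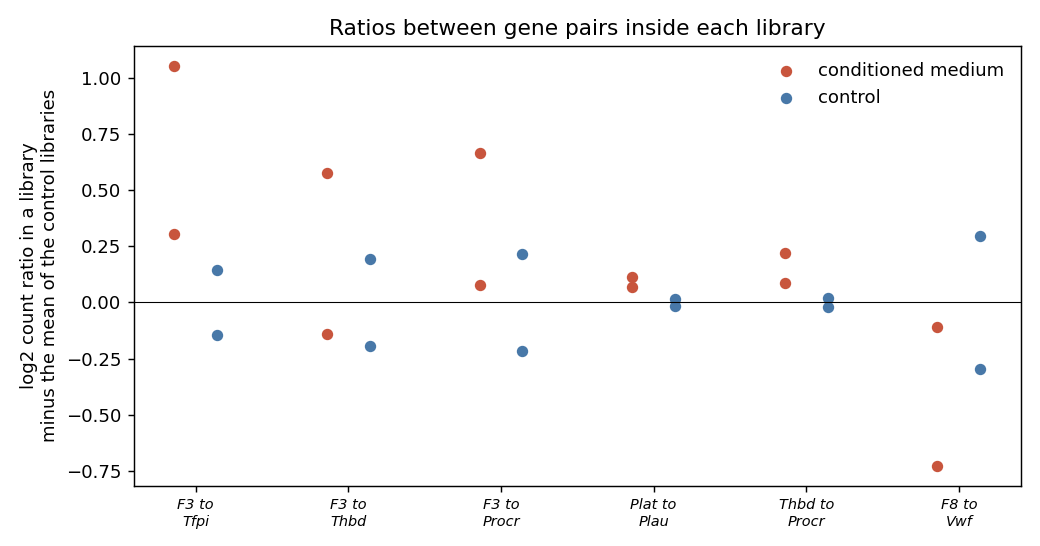
The log2 count ratio of each gene pair in a library, minus the mean of the control libraries, with conditioned medium in red and control in blue. The Thbd to Procr, Plat to Plau and F3 to Tfpi pairs lie above the controls without overlap. The pairs with F3 or Vwf, F3 to Tfpi among them, scatter by more than the other pairs.

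Thrombin also signals to the endothelium through some members of the protease-activated receptor family. Of the 4 genes in that family 2 were called, in opposite directions. This is 50% of a short list, beside 16.8% over all genes. F2r, which encodes PAR1, the main thrombin receptor of endothelial cells, had 426.1 and 428.5 CPM in conditioned medium, against 527.2 and 518.4 CPM in control. It fell 1.22-fold, or by 0.29 ± 0.04 on the log2 scale (edgeR adjusted p = 4.86e-05). F2rl3, which encodes PAR4, rose to 32.4 and 34.1 CPM in conditioned medium, against 25.3 and 22.7 CPM in control, by 1.39-fold (edgeR adjusted p = 3.68e-04). F2rl1 and F2rl2 had log2 fold changes of -0.40 and -0.51 and were not called (edgeR adjusted p = 0.0996 and 0.0813). Their groups did not overlap, as for 57.2% of all genes tested. F2rl3 fell just short of a call without conditioned medium replicate 2, at 0.43 (edgeR adjusted p = 0.0504, with alternatives from 3.45e-07).

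Over all 9 further lists of pathway genes, 60 of 91 genes were tested, of which 13 rose and 9 fell, with a median log2 fold change of 0.08. These called genes are 36.7% of those tested in the lists, beside 16.8% over all genes and 30.6% over all genes averaging 1000 counts or more. Without conditioned medium replicate 1 the counts were 7 and 5, and without replicate 2 they were 6 and 4, while calls over all genes dropped to 808 and 569 in the same pair of fits, from 2330 with all libraries. Among 5 tested anticoagulant genes outside the 9 members, Entpd1 rose, Tfpi2 fell, and Pros1, Hs3st1 and Anxa5 were not called. Entpd1 encodes CD39, which removes the platelet agonist ADP, and it stood at 127.9 ± 3.51 CPM in conditioned medium, against 102.6 ± 0.35 CPM in control (log2 fold change 0.32 ± 0.05; edgeR adjusted p = 1.03e-04). Pros1, the gene of the protein C cofactor protein S, was at 0.10 ± 0.05. Hs3st1, which makes the heparan sulfate that binds antithrombin, was at 0.79 ± 0.33 on 31 and 35 counts in conditioned medium and 13 and 22 counts in control (edgeR adjusted p = 0.108). Transcripts of protein C itself were at 1 count or fewer per library.

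**Figure D4:**
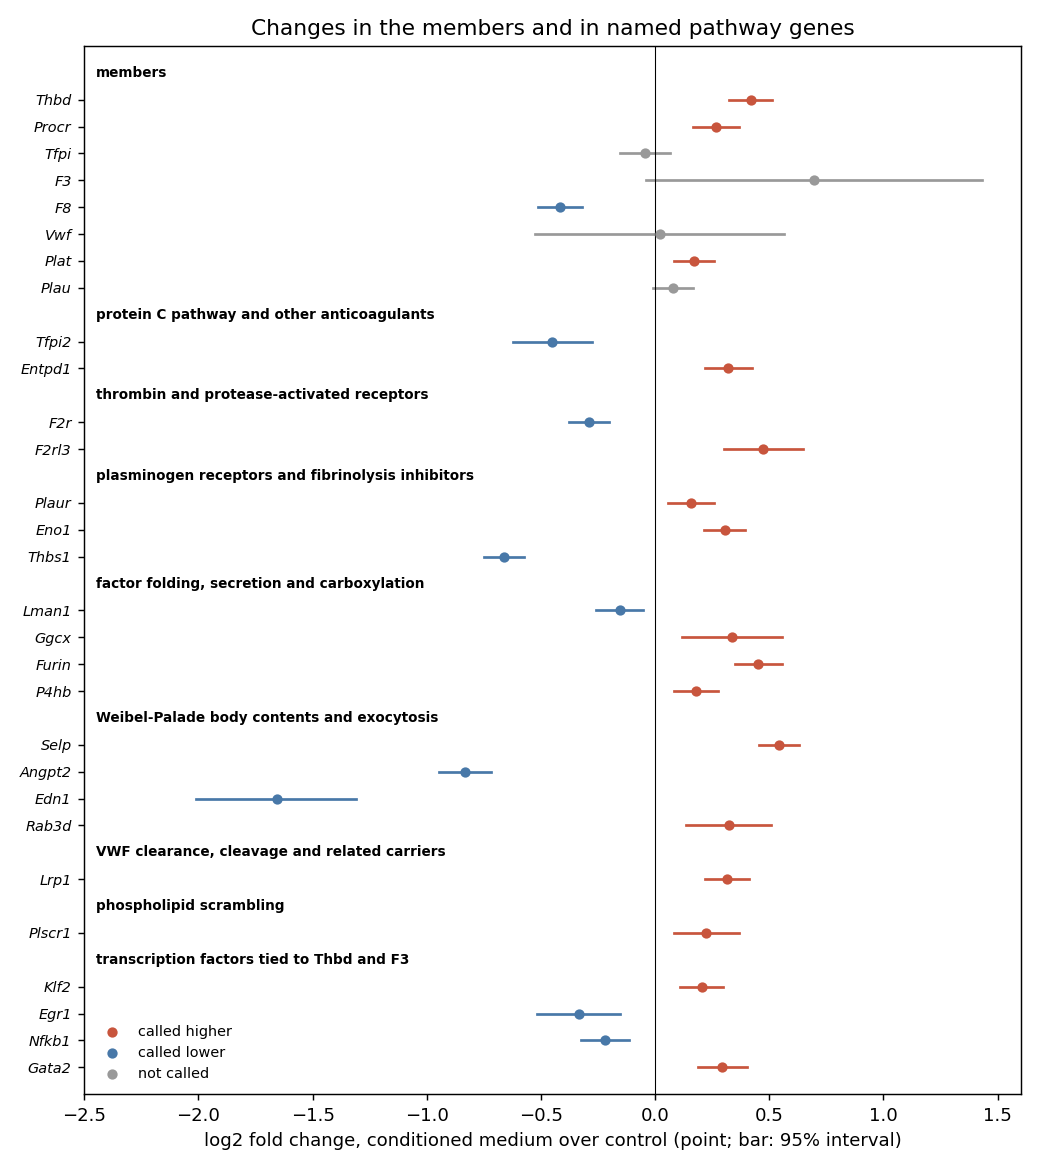
Log2 fold change of conditioned medium over control for the 8 tested genes and for the named genes of each pathway list, with 95% intervals. Points in red were called higher, in blue called lower and in grey not called. The intervals of F3 and Vwf are the widest among the 8, and Edn1 at -1.66 is the lowest of all points.

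Genes that fold, cleave and export clotting factors changed in part. Of 8 tested, 3 rose and 1 fell. The share called was 50%, beside 16.8% over all genes and 30.6% over genes averaging 1000 counts or more. Furin, the convertase that cleaves the propeptide of von Willebrand factor and other precursors, rose to 163.9 ± 0.33 CPM in conditioned medium, against 119.9 ± 6.66 CPM in control (edgeR adjusted p = 2.40e-06). Ggcx, the vitamin K-dependent carboxylase, was at a log2 fold change of 0.34 ± 0.11 and P4hb, protein disulfide isomerase, at 0.18 ± 0.05. Lman1, the cargo receptor that carries FVIII and FV out of the endoplasmic reticulum, fell by 0.16 ± 0.05 on the log2 scale (edgeR adjusted p = 0.0303), whereas its partner Mcfd2 was at 0.04 and not called. P4hb was at 0.12 without control replicate 2. Ggcx, P4hb and Lman1 lost their calls when either treated library was left out (highest edgeR adjusted p = 0.213, 0.233 and 0.248), and Ggcx and Lman1 also in DESeq2 (adjusted p = 0.365 and 0.262). Lman1 also missed the threshold under upper quartile scaling and when low counts were kept (edgeR adjusted p = 0.05 and 0.0603), and was called in 8 of 13 alternatives.

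Weibel-Palade bodies store von Willebrand factor with other cargo. Of 18 listed genes tested, 2 rose and 3 fell. These are 27.8% of those tested, beside 16.8% over all genes and 30.6% over genes averaging 1000 counts or more. Selp, the gene of P-selectin, rose 1.46-fold, with 851.5 and 873.4 CPM in conditioned medium, against 582.1 and 601.0 CPM in control. Angpt2, a vessel-destabilising ligand, fell 1.78-fold and Edn1, the endothelin-1 gene, 3.16-fold. Of the release machinery, Rab3d, a small GTPase of secretory granules, was at 0.32 ± 0.09 and the syntaxin-binding gene Stxbp6 at -0.23 ± 0.07. Rab3d lost its call in DESeq2 and when either treated library was left out (highest adjusted p = 0.275). Stxbp6 lost its call under the same settings, with no count filter and without control replicate 1 (adjusted p up to 0.35). Of 3 tested genes for clearance of von Willebrand factor and FVIII or related carriers, Lrp1, an endocytic receptor that also takes up FVIII, rose to 1400 ± 4.05 CPM in conditioned medium, against 1126 ± 67.3 CPM in control (edgeR adjusted p = 5.40e-05).

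Clotting complexes assemble on exposed phosphatidylserine. Of 5 lipid transport genes, Plscr1, a phospholipid scramblase family gene, rose by 0.22 ± 0.07 on the log2 scale. The other 4 were not called, so 20% of the list passed, beside 16.8% over all genes. Among them the scramblase gene Ano6 was at 0.07. Plscr1 lost its call when either conditioned medium library or control replicate 2 was left out (highest edgeR adjusted p = 0.334), in DESeq2 (adjusted p = 0.351) and when low counts were kept (edgeR adjusted p = 0.0512).

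Of 10 transcription factors known to act on Thbd or F3, 2 rose and 2 fell. That is 40% called, beside 16.8% over all genes and 30.6% over genes averaging 1000 counts or more. Klf2, the flow-responsive factor that raises Thbd, stood at 179 ± 3.30 CPM in conditioned medium, against 156 ± 1.02 CPM in control (log2 fold change 0.20 ± 0.05; edgeR adjusted p = 0.00338). Gata2, a factor of endothelial and blood lineages, rose by 0.29 ± 0.05. Egr1, an early response factor that binds the F3 promoter, was at -0.34 ± 0.09, and Nfkb1, an NF-kB subunit gene, at -0.22 ± 0.05. The AP-1 genes Jun and Fos were at 0.10 and 0.18 and were not called (edgeR adjusted p = 0.195 and 0.719). Klf2, Egr1 and Nfkb1 lost their calls when either treated library was left out (highest edgeR adjusted p = 0.127, 0.204 and 0.0987), Egr1 also without control replicate 2 (edgeR adjusted p = 0.0573), and Egr1 and Nfkb1 in DESeq2 (adjusted p = 0.149 and 0.0729).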

How the data were processed

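The authors deposited raw counts per gene for 4 libraries prepared with the unstranded TruSeq RNA library kit, per the labels. Per the submitters' processing notes, the tools were Subread 1.4.6-p1, featureCounts and STAR 2.5.2b, with the mm10 build; no source used here says how shared reads were handled. Of 27179 rows 25275 matched a RefSeq symbol (GRCm38.p6); the 1904 others held 6.31% of counts and stayed in the tests. The test was run in edgeR 4.0.16 under R 4.3.3 (filterByExpr with minimum count 10 and total 15, TMM, quasi-likelihood test, two-sided, Benjamini-Hochberg over 13897 genes, no replicate block). The fit had 2 residual degrees of freedom. Each gene's spread was drawn towards that of other genes, with 18 prior degrees of freedom. SE is the absolute log2 fold change over the root of F. DESeq2 1.42.0 and limma-voom 3.58.1 were alternatives. On simulated counts for this comparison with 13897 genes, 56% of 1.25-fold and 96% of 2-fold decreases were recovered. Rises were simulated at other sizes, with 84% of 1.5-fold and 98% of 4-fold rises recovered. The simulated spread followed a gene's level alone, without other differences between genes.

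The members, lists and tests were chosen with earlier results of these data known. Named from each list were up to 4 called genes with the largest change, plus Serpine2 and Plaur; other list genes were named after their values were seen. Of 134 listed genes 133 had a row; Siglec5 was not analysed here, and a few listed genes and their ratios are not reported here. Floors cover counting error only.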

Additional observations from a re-analysis of the deposited data

How the results depend on the processing

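The 13 alternatives were other scalings, count filters and models, a replicate block, and each library left out in turn. Thbd, F8, Thbs1, F2r, Entpd1, Furin, Selp, Angpt2, Edn1, Eno1, Gata2, Lrp1 and Eng kept direction and call in all of them. Of the members, 3 higher and 1 lower were called under each setting that kept all libraries, and leaving out a library gave 1 to 4 higher and 1 lower. DESeq2 called 860 genes (436 higher, 424 lower), all of them among the 2330 of edgeR, with 9 pathway genes higher and 5 lower, against 13 and 9 in edgeR. With a library left out, 569 to 3107 genes were called (323 to 1485 higher, 246 to 1622 lower), with 6 to 15 pathway genes higher and 4 to 10 lower. The log2 fold change of Vwf was -0.0020 in DESeq2 and -0.0080 with the replicate block, and ran from -0.28 to 0.35 when a library was left out. That of Tfpi ran from -0.0875 to 0.0025, of Procr from 0.20 to 0.34, of Plat from 0.16 to 0.18 and of Plau from 0.0649 to 0.0907 when a library was left out. That of F3 ran from 0.30 to 0.95. The F3 to Thbd ratio difference, 0.22 in log2, ran from -0.14 to 0.576, that of F3 to Procr from 0.0761 to 0.66, of F8 to Vwf from -0.73 to -0.11 and of Thbd to Procr from 0.0886 to 0.22. The log2 fold change of S100a10 ran from -0.0287 to 0.0543 and that of Fos from -0.0985 to 0.375, neither called. Jun ran from 0.0147 to 0.17, Mcfd2 from 0.0119 to 0.0628, Hs3st1 from 0.46 to 1.23, F2rl2 from -0.70 to -0.31 and Anxa2 from 0.0165 to 0.15. F2rl2 (-0.70) and Anxa2 (0.15) were called without control replicate 1 (edgeR adjusted p = 0.0178 and 4.62e-04), and Hs3st1 (1.23) and Anxa5 (-0.117) without control replicate 2 (edgeR adjusted p = 0.0458 and 0.0415). The cause of these shifts was not tested. Adding 0.5 counts to the ratios reversed none. Same-numbered libraries did not deviate together (r = -0.043 over 10662 genes). This cannot tell whether libraries were prepared in pairs, which the sources used here do not say. The block changed no call of a member, and 2671 genes were called with it, against 2330 without. Depth limits F3 and Vwf, at 14 to 61 counts per library, to the wide intervals given above, and leaves F5 untested.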
